A study of Mus musculus with 4 samples.

Results

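The aminoacyl-tRNA synthetases are the enzymes that load each transfer RNA with its amino acid. The 36 nuclear genes described here were taken by symbol from the deposited gene tables of a mouse choline study, out of 22328 genes, and fall into 20 genes of cytosolic enzymes and 16 genes of mitochondrial enzymes. The list was drawn up by name, with the read counts of these libraries already known, and the very high count of Lars2 was part of that choice. The level of Lars2 is therefore given as a description, as are all ratios below.

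Poly(A)-selected RNA was sequenced from 4 libraries, 1 per group. HT22 SUP and HT22 CON are the HT22 cell line, an immortalised mouse hippocampal neuronal line, kept for 48 h in 70 µM choline chloride (HT22 SUP) or in 5 µM choline chloride (HT22 CON), both in high-glucose medium with 10% fetal bovine serum and 1% penicillin/streptomycin. F1m-GCS is hippocampus from offspring whose dams ate 5 g/kg choline chloride between embryonic day 9 and birth, and F1m-CON is hippocampus from offspring whose dams ate 1.1 g/kg over the same days; both sets of offspring ate a basal diet after birth and went through behavioural tests at 2 months of age. The labels do not say whether a hippocampus library holds 1 animal or a pool, and HT22 is a single line. The libraries held 13192007 reads in genes for HT22 SUP, 18305096 for HT22 CON, 30265820 for F1m-GCS and 31175015 for F1m-CON. With 1 library per group there are no replicates and no test, so every log2 ratio carries a 95% interval that covers counting error only. PCR duplicates cannot be told from separate molecules, which makes those intervals too narrow.

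Each synthetase recognises one amino acid and its transfer RNAs, uses ATP to activate the amino acid, and transfers it to the end of the transfer RNA, from which the ribosome takes it. Mitochondria translate their own small genome and need a set of their own, which is encoded in the nucleus and imported; the mitochondrial genes carry a 2 in their names. Several cytosolic enzymes sit together in a multisynthetase complex held by scaffold proteins, and in the nervous system mutations in members of both sets are known causes of neuropathy, leukodystrophy and ataxia.

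A subset of the cytosolic genes belongs to the amino acid response, in which the transcription factor ATF4 acts through a C/EBP-ATF response element. The core of that element, TGATGNAA (N is any base), was looked up on both strands in RefSeq promoters of GRCm38.p6, which run over 300 bases, 250 before and 50 after each gene's start. The sequences of 13 cytosolic and 14 mitochondrial genes were matched. The core was in 5 of the 13 cytosolic promoters (38.5%), those of Aars, Gars, Iars, Tars and Yars, in 0 of the 14 mitochondrial promoters, and in 1219 of 27025 genes with a promoter in the table (4.51%). A match is a string of letters and not a measured binding site. The windows of Gars and Tars are printed, where the match lies upstream of the start and outside the annotated exons of the gene; both genes are compared by level between cell line and tissue below. Each reads 5′ to 3′ on its gene's strand, the core is in capitals, and both matches lie on the opposite strand and so read as the reverse complement.
Gars, chr6:55037931-55038000 (+): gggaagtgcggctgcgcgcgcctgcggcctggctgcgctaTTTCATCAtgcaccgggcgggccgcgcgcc
Tars, chr15:11399666-11399713 (-): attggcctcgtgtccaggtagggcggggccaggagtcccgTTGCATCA

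Levels are given as RPKM, reads per kilobase of coding length per 1000000 reads in genes. The cytosolic set was higher than the mitochondrial set in every library once Lars2 was set aside. The median cytosolic gene stood at 77.5 RPKM in HT22 SUP, 82.2 in HT22 CON, 34.1 in F1m-GCS and 36.3 in F1m-CON. The median of the 15 mitochondrial genes other than Lars2 was 13.5 RPKM in HT22 SUP, 14.0 in HT22 CON, 9.61 in F1m-GCS and 9.66 in F1m-CON. All 36 genes passed the filter on low counts in every comparison.

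In HT22 cells Sars, the serine enzyme, led the cytosolic set with 367 RPKM in HT22 SUP and 345 in HT22 CON, ahead of Gars, the glycine enzyme, with 269 in HT22 SUP and 251 in HT22 CON. Aars (alanine) had 195 RPKM in HT22 SUP and 182 in HT22 CON. Sars and Gars kept their places in both cell line libraries, while Aars, Yars and Nars lay close together and changed theirs. Yars, the tyrosine enzyme, had 182 RPKM in HT22 SUP and 185 in HT22 CON, and Nars had 177 in HT22 SUP and 183 in HT22 CON. Iars, the isoleucine enzyme, was lowest, with 34.9 RPKM in HT22 SUP and 37.0 in HT22 CON.

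The order was another one in the hippocampus, where Nars, the asparagine enzyme, was the highest, with 142.9 RPKM in F1m-GCS and 156 in F1m-CON. Sars followed with 113 RPKM in F1m-GCS and 124 in F1m-CON. Wars, the tryptophan enzyme, came next in F1m-GCS at 80.2 RPKM and had 78.7 in F1m-CON, where Gars stood at 80.2 RPKM against 72.3 in F1m-GCS. Wars and Gars thus changed places between the hippocampus libraries. At the low end were Vars, the valine enzyme, with 13.5 RPKM in F1m-GCS and 14.5 in F1m-CON, and Iars, with 15.7 and 15.3 RPKM in the same libraries. Iars was thus the lowest or next-lowest cytosolic gene in all 4 libraries.

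**Figure D1:**
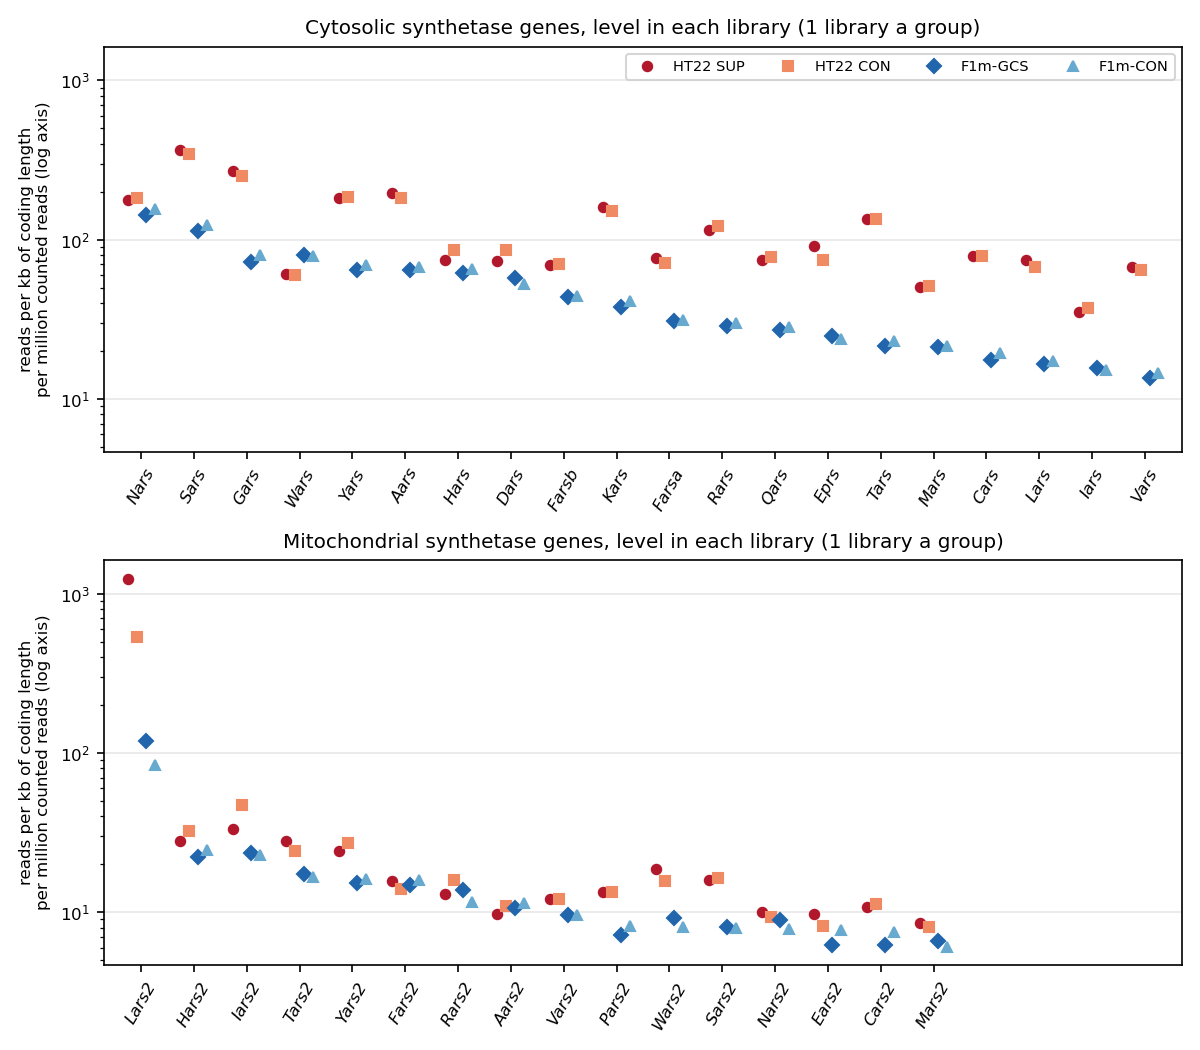
Level of each of the 36 synthetase genes in RPKM (log axis) in the 4 libraries, cytosolic and mitochondrial genes apart; each point is 1 library. Lars2 stands above every other mitochondrial gene in all 4 libraries, at 1242 RPKM in HT22 SUP, 536 in HT22 CON, 119 in F1m-GCS and 84.4 in F1m-CON.

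Kars and Gars each encode both the cytosolic and the mitochondrial enzyme from 1 gene, for lysine and for glycine, and are counted here with the cytosolic set. Kars had 3941 reads in HT22 SUP, 5160 in HT22 CON, 2128 in F1m-GCS and 2407 in F1m-CON. This is 159 RPKM in HT22 SUP, 150 in HT22 CON, 37.5 in F1m-GCS and 41.2 in F1m-CON. Both genes lay above all mitochondrial genes but Lars2 in all 4 libraries.

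Among the mitochondrial genes other than Lars2, Iars2 (isoleucine) and Hars2 (histidine) were the highest in F1m-GCS, F1m-CON and HT22 CON; in HT22 SUP Tars2 (threonine), at 28.0 RPKM, lay just above Hars2. Iars2 stood at 33.3 RPKM in HT22 SUP, 47.2 in HT22 CON, 23.4 in F1m-GCS and 22.9 in F1m-CON. Hars2 stood at 27.8 RPKM in HT22 SUP, 32.5 in HT22 CON, 22.3 in F1m-GCS and 24.4 in F1m-CON. Tars2, Yars2 (tyrosine) and Fars2 (phenylalanine) formed the next group in the hippocampus, between 14.7 and 17.3 RPKM. The lowest were Cars2 (cysteine), Ears2 (glutamate) and Mars2 (methionine), between 6.08 and 7.73 RPKM in the hippocampus libraries. Ears2 charges glutamate onto mitochondrial glutamine transfer RNA too, which an amidotransferase then converts, and the list holds no mitochondrial glutamine gene.

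For 13 amino acids a cytosolic and a mitochondrial gene could be set side by side. The median ratio of the cytosolic over the mitochondrial level was 5.88 in HT22 SUP, 6.37 in HT22 CON, 2.81 in F1m-GCS and 2.67 in F1m-CON. The cytosolic gene was the higher of the pair in 12 of 13 pairs in HT22 SUP and in 11 of 13 in each of HT22 CON, F1m-GCS and F1m-CON. The asparagine pair was the widest in the hippocampus, with Nars over Nars2 at 17.6 in HT22 SUP, 19.5 in HT22 CON, 16.0 in F1m-GCS and 20.1 in F1m-CON. That ratio was much the same in tissue and cell line, and so was that of the histidine pair, whose genes lie head to head: Hars over Hars2 was 2.69 in HT22 SUP, 2.65 in HT22 CON, 2.76 in F1m-GCS and 2.67 in F1m-CON. The tryptophan pair had the opposite pattern to most, with Wars over Wars2 at 3.30 in HT22 SUP, 3.80 in HT22 CON, 8.70 in F1m-GCS and 9.70 in F1m-CON. In 9 of 13 pairs the ratio was higher in both HT22 libraries than in both hippocampus libraries. Only the leucine pair was inverted in all 4 libraries, with Lars over Lars2 at 0.0596 in HT22 SUP, 0.127 in HT22 CON, 0.140 in F1m-GCS and 0.206 in F1m-CON. The isoleucine pair was inverted in 3 of them, with Iars over Iars2 at 1.05 in HT22 SUP, 0.784 in HT22 CON, 0.671 in F1m-GCS and 0.665 in F1m-CON.

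**Figure D2:**
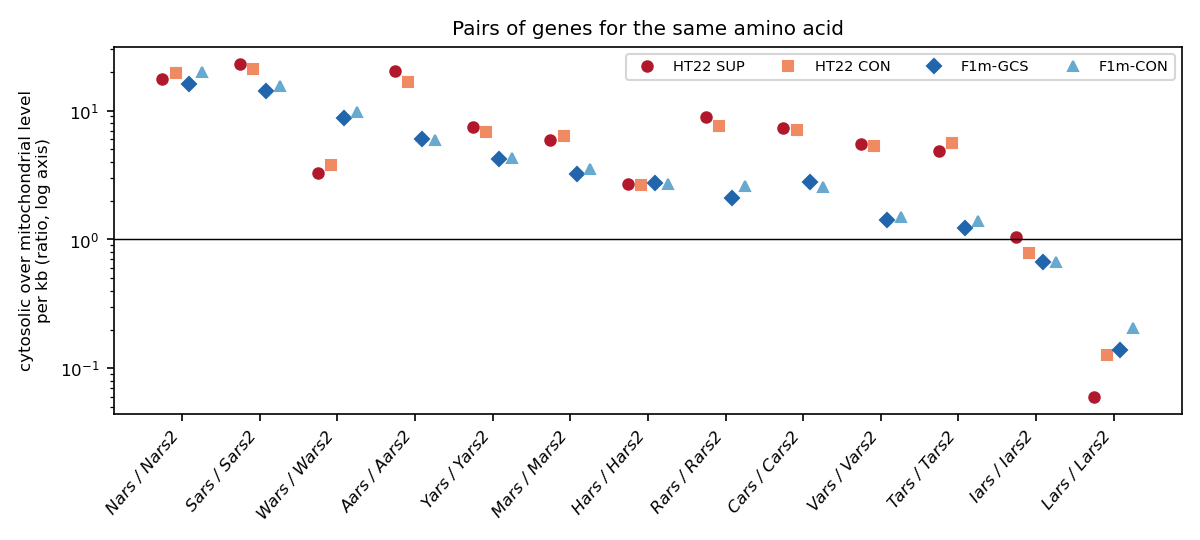
Ratio of the cytosolic over the mitochondrial level (RPKM, log axis) for 13 amino acids in the 4 libraries, 1 point per library. The leucine pair lies lowest in each library, from 0.0596 in HT22 SUP to 0.206 in F1m-CON, and the median pair is higher in both HT22 libraries than in both hippocampus libraries.

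Lars2, the mitochondrial leucine enzyme (ENSMUSG00000035202, chr9:123366940-123462664, plus strand, mm10), stood apart from the rest of the set. It had 44380 reads in HT22 SUP, 26556 in HT22 CON, 9756 in F1m-GCS and 7128 in F1m-CON. Its level was 92.2 times the median of the other mitochondrial genes in HT22 SUP, 38.2 times in HT22 CON, 12.4 times in F1m-GCS and 8.73 times in F1m-CON. In HT22 SUP, Lars2 ranked 3 among all genes by reads and in HT22 CON it ranked 23, against 515 in F1m-GCS and 902 in F1m-CON. It took 0.336% of all reads in genes in HT22 SUP, 0.145% in HT22 CON, 0.0322% in F1m-GCS and 0.0229% in F1m-CON. Of the reads of the 16 mitochondrial genes it held 87.6% in HT22 SUP, 73.5% in HT22 CON, 48.1% in F1m-GCS and 39.3% in F1m-CON, so sums over that set are given with and without it.

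Mouse Lars2 is known to carry, near its 3′ end, a stretch that resembles ribosomal RNA, and a count of such a gene can take in reads from ribosomal RNA. The transcript was therefore aligned to GENCODE M21. The longest coding transcript, of 3894 bases, was set against 141767 transcripts, 354 of them annotated as ribosomal RNA and 2 as mitochondrial ribosomal RNA, and gave 0 alignments to either kind. Outside its own gene it aligned to transcripts of 19 genes, all within the 989 bases after the coding part, and to none in the coding part itself. The closest was Gm15564, an antisense noncoding gene, with 98.6% identity over 72 bases (chr9:123462048-123462119). AA474408 matched an overlapping stretch, chr9:123461933-123462119, with 80.1% identity over 196 aligned bases. AA474408 was low, with 58 reads in HT22 SUP, 41 in HT22 CON, 58 in F1m-GCS and 76 in F1m-CON. Its log2 ratio was 0.95 (0.38 to 1.60) for HT22 SUP over HT22 CON and -0.33 (-0.85 to 0.18) for F1m-GCS over F1m-CON. The longest transcript annotated as ribosomal RNA in that set has 1849 bases and none is named for the 28S RNA of the large subunit, whose sequence was not used here, and the deposited tables give 1 count per gene and no position within it. The part of ribosomal RNA reads in the Lars2 count was not tested, and each Lars2 value below is a read count with that limit.

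Prenatal choline and the hippocampus were the first comparison. The cytosolic genes lay close together and slightly lower in F1m-GCS than in F1m-CON: the median log2 ratio was -0.06, over a range of -0.14 to 0.14, and 15 of 20 were below 0, beside 51.2% of the 13392 genes that had 50 reads or more in either library. The smaller threshold used here is a level 25% higher in one library than in the other, in either direction, with an interval clear of 0; the larger is 1.5-fold. None of the 20 passed the 25% threshold, where 6.22% of all genes did so upwards and 3.2% downwards, and none of the 36 passed 1.5-fold, where 1.8% did upwards and 0.904% downwards. The interval lay wholly below 0 for 8 cytosolic genes and 2 mitochondrial genes, beside 18.8% of all genes, and wholly above 0 for 2 genes of each set, beside 20.9%. The summed level of the cytosolic set was 1919 CPM (reads per 1000000 reads in genes, 1903 to 1934) in F1m-GCS and 2012 CPM (1996 to 2027) in F1m-CON. Marker genes of the choroid plexus, which lies against the hippocampus, summed to 1588 CPM in F1m-GCS and 1861 CPM in F1m-CON, with 5 of 6 past the 25% threshold downwards and 0 at 0 in either library; their part in the small synthetase ratios was not tested. In bulk tissue, fewer cells of a type and less RNA per cell cannot be told apart.

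The lowest cytosolic ratios were those of Gars, Cars and Kars. Gars had 4790 reads in F1m-GCS and 5476 in F1m-CON, a log2 ratio of -0.14 (-0.20 to -0.08). Cars, the cysteine enzyme, had 1319 reads in F1m-GCS and 1504 in F1m-CON, a log2 ratio of -0.13 (-0.24 to -0.03). Kars stood at -0.12 (-0.21 to -0.04). All 3 are well inside the 25% threshold. The intervals of Nars, Sars, Yars, Hars and Aars were below 0 too: Nars was at -0.12 (7266 reads in F1m-GCS, 8178 in F1m-CON) and Sars at -0.11 (5525 reads in F1m-GCS, 6212 in F1m-CON).

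At the other end were Dars, Eprs and Iars, all 3 enzymes of the multisynthetase complex. Dars, the aspartate enzyme, had 2617 reads in F1m-GCS and 2459 in F1m-CON, a log2 ratio of 0.14 (0.06 to 0.22). Eprs, a single protein that charges both glutamate and proline, had 3417 reads in F1m-GCS and 3339 in F1m-CON, a ratio of 0.09 (0.02 to 0.16). Iars had 1797 reads in F1m-GCS and 1802 in F1m-CON, a ratio of 0.05 with an interval that spans 0. These directions hang on gene length and base composition: with a correction for coding length Eprs was at -0.02 and Iars at -0.06, and with one for coding length and GC content Dars was at 0.02. Of the 8 enzymes of the complex (Dars, Eprs, Iars, Kars, Lars, Mars, Qars and Rars) 4 were below 0, with a median of -0.02, and of the 12 cytosolic genes outside it 11 were below 0, with a median of -0.09. The difference between these subsets was not tested.

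In the mitochondrial set the median log2 ratio was 0.01, and 7 of 16 genes were below 0. Lars2 was the only synthetase past the 25% threshold in the hippocampus, with a log2 ratio of 0.51 (0.46 to 0.55), which is 1.42-fold. It ranked 356 among 13392 genes by ratio, and 3 among the 1495 genes with at least 5000 reads. In the authors' deposited table its log2 fold change was 0.51 as well. Rars2, the mitochondrial arginine enzyme, followed with 722 reads in F1m-GCS and 628 in F1m-CON, a ratio of 0.25 (0.10 to 0.41). Nars2 had 388 reads in F1m-GCS and 348 in F1m-CON, a ratio of 0.21 whose interval included 0.

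The lowest mitochondrial ratios were those of Ears2, Cars2 and Pars2. Ears2 had 296 reads in F1m-GCS and 379 in F1m-CON, a log2 ratio of -0.30 (-0.53 to -0.08). Cars2 had 312 reads in F1m-GCS and 391 in F1m-CON, a ratio of -0.27 (-0.49 to -0.05). Pars2, the mitochondrial proline enzyme, had 334 reads in F1m-GCS and 390 in F1m-CON, a ratio of -0.17. These genes have few reads, and both intervals given run close to 0. Without Lars2 the 15 mitochondrial genes summed to 348 CPM (341 to 355) in F1m-GCS and 352 CPM (346 to 359) in F1m-CON, and these intervals overlap.

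**Figure D3:**
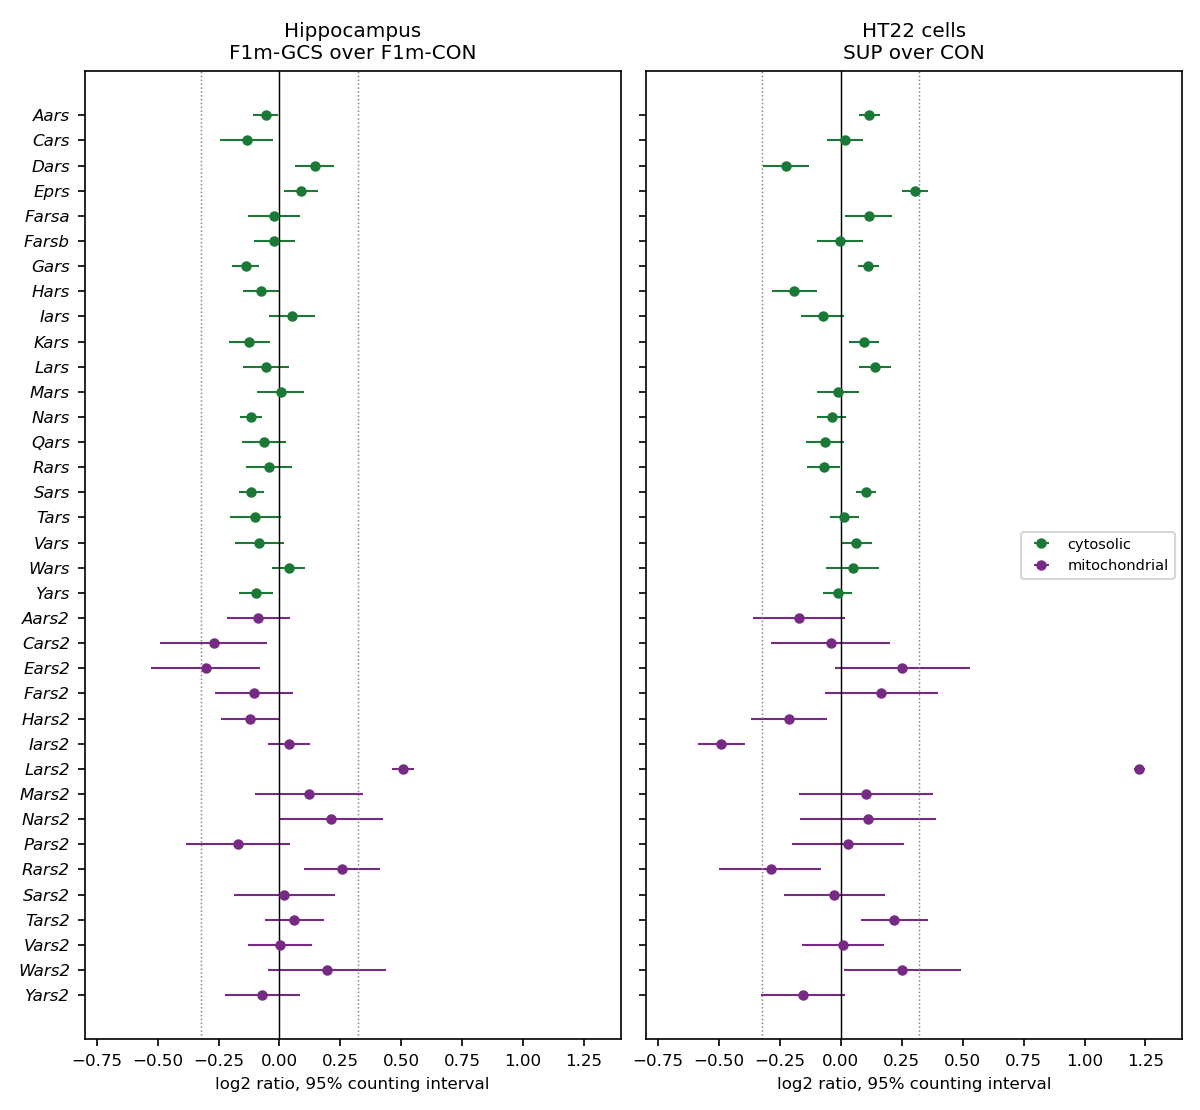
Log2 ratio of each synthetase gene with its 95% counting interval, for F1m-GCS over F1m-CON and for HT22 SUP over HT22 CON; bars are counting intervals and dotted lines mark the 25% threshold in either direction. Lars2 lies furthest right in both, at 0.51 in the hippocampus and 1.23 in HT22 cells, and Iars2 lies furthest left in HT22 cells, at -0.49.

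Choline in HT22 cells was the second comparison, HT22 SUP over HT22 CON. The cytosolic genes again lay close together, with a median log2 ratio of 0.02, a range of -0.22 to 0.30, and 9 of 20 below 0, beside 58.1% of the 10854 genes that had 50 reads or more in either library and a median over those genes of -0.05. None passed the 25% threshold, where 10.5% of all genes did so upwards and 12.7% downwards. The interval lay wholly above 0 for 7 cytosolic and 3 mitochondrial genes (22.4% of all genes) and wholly below 0 for 3 cytosolic and 3 mitochondrial genes (32.7%). HT22 SUP was the shallower library, and 63.1% of its uniquely mapped reads lay in genes, against 72.9% in HT22 CON. Scaling to uniquely mapped reads in place of reads in genes moved every gene of this comparison by -0.22 and both synthetase medians to -0.20, so the direction of a small ratio here hangs on that choice.

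Eprs was the highest cytosolic gene, with 5481 reads in HT22 SUP and 6213 in HT22 CON, a log2 ratio of 0.30 (0.25 to 0.36). Its coding part is long, and with a correction for coding length its ratio was 0.01, below the 0.12 of Lars and the 0.10 of Aars. Lars, the cytosolic leucine enzyme, had 3456 reads in HT22 SUP and 4389 in HT22 CON, a ratio of 0.14 (0.07 to 0.20). Aars had 7494 reads in HT22 SUP and 9672 in HT22 CON, a ratio of 0.12 (0.07 to 0.16). Gars (7774 reads in HT22 SUP, 10054 in HT22 CON), Farsa, Sars and Kars also had intervals above 0, with ratios from 0.10 to 0.11. Farsa and Farsb encode the subunits of a single phenylalanine enzyme: Farsa had 1536 reads in HT22 SUP and 1986 in HT22 CON, while Farsb had 1617 in HT22 SUP and 2267 in HT22 CON with an interval that spans 0.

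The lowest cytosolic genes were Dars, Hars and Iars. Dars had 1450 reads in HT22 SUP and 2370 in HT22 CON, a log2 ratio of -0.22 (-0.32 to -0.13). Hars, the histidine enzyme, had 1509 reads in HT22 SUP and 2409 in HT22 CON, a ratio of -0.19 (-0.28 to -0.10), and its mitochondrial partner Hars2 had 557 reads in HT22 SUP and 903 in HT22 CON, a ratio of -0.21 (-0.37 to -0.06). Hars and Hars2 share 195 exon bases on opposite strands, and the library kit keeps no strand. Iars had 1745 reads in HT22 SUP and 2569 in HT22 CON, a ratio of -0.07. The size of the Dars, Hars and Iars ratios hangs on gene length and base composition. With a correction for coding length Dars was at -0.12, Hars at -0.09 and Iars at -0.37. With one for coding length and GC content Dars was at -0.05, Hars at -0.08 and Iars at -0.45. A processed pseudogene, Gm4849, matches Iars with 96.0% identity over 1656 bases, so the Iars count is uncertain.

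The mitochondrial set had a median of 0.02, with Lars2 and Iars2 at its ends. Lars2 had a log2 ratio of 1.23 (1.203 to 1.247), which is 2.34-fold, and was the only synthetase past 1.5-fold, beside 5.13% of all genes that were higher and 2.89% that were lower by as much. It ranked 156 among 10854 genes by ratio and 3 among the 630 genes with at least 5000 reads. The authors' deposited table gives 0.77 for this gene, with the lowest p-value of all 22328 genes; that value is not the ratio of the deposited counts, and no source used here gives the step behind it. Among the 36 listed genes Iars2 was the only one past the 25% threshold downwards, with 1337 reads in HT22 SUP and 2628 in HT22 CON. Its log2 ratio was -0.49 (-0.59 to -0.40). Tarsl2, kept with the accessory genes below, was past that threshold too. Iars2 (chr1:185284726-185329396, minus strand) shares 2034 exon bases with Rab3gap2 on the other strand. Rab3gap2 had 1407 reads in HT22 SUP and 1882 in HT22 CON, a ratio of 0.06 (-0.04 to 0.17). In the hippocampus Iars2 had 2149 reads in F1m-GCS and 2172 in F1m-CON, a ratio of 0.04 (-0.05 to 0.13).

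Rars2 and Hars2 were next above Iars2. Rars2 had 297 reads in HT22 SUP and 508 in HT22 CON, a log2 ratio of -0.29 (-0.50 to -0.08). Behind Lars2 at the high end were Wars2, with 265 reads in HT22 SUP and 311 in HT22 CON, and Ears2, with 201 in HT22 SUP and 236 in HT22 CON. Both had a ratio of 0.25; the interval of Wars2 ran from 0.01 to 0.49 and that of Ears2 from -0.03 to 0.53. Tars2 had a ratio of 0.22 (0.08 to 0.36). Without Lars2 the mitochondrial genes summed to 478 CPM (466 to 490) in HT22 SUP and 524 CPM (513 to 534) in HT22 CON. With Lars2 the sums were 3842 CPM in HT22 SUP and 1974 CPM in HT22 CON.

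The cell line against the tissue was the widest contrast in the set. The libraries of a source differ in choline supply and are not replicates, so a gene was counted only where the mean level differed at least 2-fold and both HT22 libraries lay beyond both hippocampus libraries. On that count 15 of 20 cytosolic genes were higher in HT22 cells and 0 lower, beside 27.4% of the 14012 genes measured that were higher and 36.2% that were lower. Their median log2 ratio was 1.36, against -0.12 over all genes. Only 1 of 16 mitochondrial genes was 2-fold higher, Lars2, and 0 were lower; the mitochondrial median was 0.37, or 0.26 without Lars2. The summed cytosolic level was 5299 CPM in HT22 SUP and 5134 in HT22 CON, against 1919 in F1m-GCS and 2012 in F1m-CON.

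**Figure D4:**
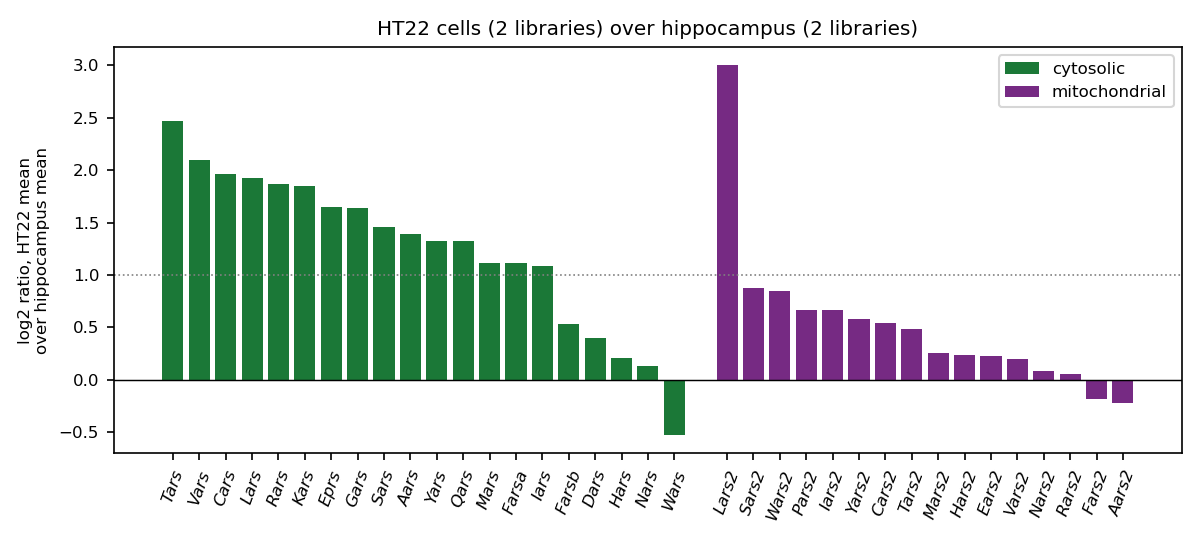
Log2 ratio of the mean level in HT22 cells over the mean level in hippocampus for each synthetase gene, drawn as a bar; the dotted line marks 2-fold higher. Of the 20 cytosolic genes 15 lie past 2-fold, led by Tars at 2.47, while Lars2 at 2.997 is the only mitochondrial gene that does.

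Tars, the threonine enzyme, was the furthest apart of the cytosolic genes, with 3871 reads in HT22 SUP, 5361 in HT22 CON, 1404 in F1m-GCS and 1562 in F1m-CON. This is 135 RPKM in each HT22 library, against 21.4 in F1m-GCS and 23.1 in F1m-CON, a log2 ratio of 2.47. Its promoter window is printed above. Vars followed at 2.10, with 3385 reads in HT22 SUP, 4531 in HT22 CON, 1572 in F1m-GCS and 1728 in F1m-CON. Cars was at 1.96, with 2593 reads in HT22 SUP, 3582 in HT22 CON, 1319 in F1m-GCS and 1504 in F1m-CON, or 78.7 RPKM in HT22 SUP and 78.4 in HT22 CON, against 17.5 in F1m-GCS and 19.3 in F1m-CON. For these 3 genes the HT22 libraries lay close together and far from both hippocampus libraries. The 5 cytosolic genes with the TGATGNAA core in their promoters ran from 1.09 (Iars) to 2.47 (Tars). The matched cytosolic genes without it ran from 0.40 (Dars) to 1.84 (Kars). Any relation of the core to these ratios was not tested.

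Enzymes of the multisynthetase complex made up 7 of the 15. Lars was at 1.93, with 74.1 RPKM in HT22 SUP and 67.8 in HT22 CON, against 16.6 in F1m-GCS and 17.4 in F1m-CON. Rars, the arginine enzyme, was at 1.87, with 114 RPKM in HT22 SUP and 121 in HT22 CON, against 28.9 in F1m-GCS and 30.0 in F1m-CON. Kars was at 1.84. Eprs, at 1.65, had 91.5 RPKM in HT22 SUP and 74.8 in HT22 CON, against 24.9 in F1m-GCS and 23.6 in F1m-CON. With Qars (glutamine) at 1.33, Mars (methionine) at 1.12 and Iars at 1.09, 7 of the 8 enzymes of the complex passed 2-fold, and Dars at 0.40 did not. Outside the complex 8 of 12 passed, the others being Gars at 1.64, Sars at 1.46, Aars at 1.39, Yars at 1.33 and Farsa at 1.11.

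Qars had 74.2 RPKM in HT22 SUP and 78.3 in HT22 CON, against 27.1 in F1m-GCS and 28.5 in F1m-CON. Mars had 50.3 RPKM in HT22 SUP and 51.2 in HT22 CON, against 21.3 in F1m-GCS and 21.4 in F1m-CON. Farsa had 76.3 RPKM in HT22 SUP and 71.1 in HT22 CON, against 30.7 in F1m-GCS and 31.4 in F1m-CON. The subunits of the phenylalanine enzyme were thus unlike in this respect, since Farsb was at 0.53. Its levels were 69.3 RPKM in HT22 SUP and 70.0 in HT22 CON, against 43.5 in F1m-GCS and 44.5 in F1m-CON. Aars had 64.3 RPKM in F1m-GCS and 67.4 in F1m-CON, and Yars had 64.2 in F1m-GCS and 69.2 in F1m-CON, set against their HT22 levels above.

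At the low end of the cytosolic set were Wars, Nars and Hars. Wars was the only one below 0, at -0.53, with 1167 reads in HT22 SUP, 1579 in HT22 CON, 3508 in F1m-GCS and 3548 in F1m-CON, which is 61.2 RPKM in HT22 SUP and 59.7 in HT22 CON, against 80.2 in F1m-GCS and 78.7 in F1m-CON. Nars was at 0.14, with 3923 reads in HT22 SUP, 5631 in HT22 CON, 7266 in F1m-GCS and 8178 in F1m-CON. Hars was at 0.21, with 1509 reads in HT22 SUP, 2409 in HT22 CON, 2849 in F1m-GCS and 3115 in F1m-CON, or 74.8 RPKM in HT22 SUP and 86.0 in HT22 CON, against 61.5 in F1m-GCS and 65.3 in F1m-CON. Dars, at 0.40, had 73.0 RPKM in HT22 SUP and 86.0 in HT22 CON, against 57.4 in F1m-GCS and 52.4 in F1m-CON. Nars, the highest synthetase of the hippocampus, was thus among the least different between cell line and tissue.

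Of the mitochondrial genes, Lars2 was at 2.997 with the limit on its count given above. Sars2 (serine) was next at 0.88, with 327 reads in HT22 SUP, 466 in HT22 CON, 378 in F1m-GCS and 387 in F1m-CON. Wars2 was at 0.85, with 265 reads in HT22 SUP, 311 in HT22 CON, 302 in F1m-GCS and 274 in F1m-CON, or 18.5 RPKM in HT22 SUP and 15.7 in HT22 CON, against 9.21 in F1m-GCS and 8.12 in F1m-CON. Iars2 and Pars2 were both at 0.67, Yars2 at 0.58, Cars2 at 0.54 and Tars2 at 0.48. Mars2, Hars2, Ears2, Vars2 (valine) and Nars2 lay between 0.08 and 0.26. At the low end were Aars2 (alanine) at -0.22, with 376 reads in HT22 SUP, 592 in HT22 CON, 949 in F1m-GCS and 1046 in F1m-CON, and Fars2 at -0.18, with 279, 348, 605 and 675 reads in the same libraries. Rars2 was at 0.06, with 13.0 RPKM in HT22 SUP and 16.0 in HT22 CON, against 13.7 in F1m-GCS and 11.6 in F1m-CON. Fars2 overlaps Nrn1 over 501 exon bases on the other strand, and any part of Nrn1 reads in its count was not tested. Fars2 is 1 of 10 synthetase genes that share exon bases with another protein-coding gene. Another is Aars, which shares 1326 exon bases with Exosc6 on the same strand, and every Aars count here has that limit.

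The genes that work beside the synthetases are given for scale. ATF4 and its targets (28 genes, 27 measured) were higher by 2-fold or more in HT22 cells for 18 genes and lower for 2, with a median log2 ratio of 2.02, beside the 27.4% of all genes that were higher and 36.2% that were lower. Atf4 itself, with 7575 reads in HT22 SUP, 12703 in HT22 CON, 4197 in F1m-GCS and 4543 in F1m-CON, was at 2.02, and Asns, the asparagine synthetase that makes the free amino acid, was at 1.29. Furthest from 0 were Eif4ebp1 at 6.38 and Trib3 at 5.59. Eif4ebp1 had 3523 reads in HT22 SUP, 4568 in HT22 CON, 71 in F1m-GCS and 98 in F1m-CON. Trib3 had 414 in HT22 SUP, 683 in HT22 CON, 18 in F1m-GCS and 17 in F1m-CON. Trib3 passed the filter of 50 reads only through the HT22 libraries, where it is high. Slc7a3, 1 of the 2 lower genes, passed it only through the hippocampus libraries, with 15 reads in HT22 SUP and 23 in HT22 CON. The TGATGNAA core was in 8 of the 23 promoters of this list that were matched (34.8%). Within the choline comparisons the list had medians of -0.05 in the hippocampus (2 of 26 genes past the 25% threshold upwards, Aldh1l2 and Slc7a11, beside 6.22% of all genes) and -0.08 in HT22 cells (2 of 26 past it downwards, Ddit4 and Cth, beside 12.7%). Atf4 was at -0.06 in the hippocampus and -0.26 (-0.30 to -0.22) in HT22 cells.

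Accessory genes of transfer RNA charging (15 of 16 in the table, 14 measured) had medians of -0.06 in the hippocampus and -0.07 in HT22 cells. Aimp2, a scaffold of the multisynthetase complex, had 345 reads in F1m-GCS and 493 in F1m-CON, a log2 ratio of -0.46 (-0.66 to -0.26). Sepsecs, which completes selenocysteine on its transfer RNA, had 791 reads in F1m-GCS and 638 in F1m-CON, a ratio of 0.36 (0.21 to 0.52). Those were the 2 of 14 past the 25% threshold in the hippocampus, 1 in each direction, beside 6.22% of all genes upwards and 3.2% downwards. Tarsl2, a second cytosolic threonine enzyme, had 243 reads in HT22 SUP and 509 in HT22 CON, a ratio of -0.58 (-0.81 to -0.36). It was the 1 gene of the list past the 25% threshold in HT22 cells, downwards, beside 12.7% of all genes. Against tissue Tarsl2 was lower in HT22 cells, at -1.05, where Tars was at 2.47.

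The labelled sources were checked against marker genes. A list of 12 pan-neuronal genes summed to 424 CPM in HT22 SUP and 348 in HT22 CON, against 10996 CPM in F1m-GCS and 11035 in F1m-CON. The sum in HT22 SUP was 3.85% of the mean hippocampus sum and that in HT22 CON 3.16%, so HT22 cells carried few defining neuronal transcripts. Between HT22 SUP and HT22 CON, 7 of the 10 measured pan-neuronal genes were past the 25% threshold upwards, beside 10.5% of all genes. Tubb3, at -0.62, was the 1 gene past it downwards, beside 12.7% of all genes. The filter on low counts left out Nefm and Rbfox3. Nefm had 42 reads in HT22 SUP and 10 in HT22 CON, and Rbfox3 had 33 and 15 in the same libraries. Of the 12 genes, 0 were at 0 in either library. Long genes were higher in the supplemented library of both pairs: the tenth of genes with the longest coding parts had a median log2 ratio of 0.11 in the hippocampus and 0.29 in HT22 cells. Across the 35 synthetase genes other than Lars2, Spearman's rho of log2 ratio with coding length was 0.04 in the hippocampus and 0.0031 in HT22 cells, over genes of shared libraries and as a description. With a correction for coding length the log2 ratio of Lars2 was 0.46 in the hippocampus and 1.21 in HT22 cells.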

How the data were processed

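RNA was poly(A)-selected with an unstranded kit and sequenced in paired-end mode, per the labels' protocols. Reads were trimmed with Trim Galore, aligned to mm10 with TopHat2 (up to 2 mismatches, mapping quality of at least 4), counted per gene with HTSeq and compared with edgeR, per the series' design text; CASAVA 1.8 is also named in the submitters' processing notes, and no source used here gives the other versions. The deposited tables hold raw read counts per gene for each library, the authors' RPKM, and the authors' log2 fold changes with p-values and FDR values. The deposited RPKM equal reads per kilobase of the tabulated length per 1000000 reads in genes (largest relative difference 4.8e-14); 99.8% of those lengths are multiples of 3, so they are coding lengths. No source used here says whether reads in untranslated regions were counted.

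From the counts, log2 ratios were computed with edgeR 4.0.16 TMM scaling and a prior count of 2, with exact conditional (Clopper-Pearson) 95% intervals from scipy 1.17.1, for genes with at least 50 reads in 1 library of the comparison. The thresholds were a level higher by 25%, or 1.5-fold, in one library than in the other, with an interval clear of 0. Drawn counts with known folds were called in 25 of 25 genes at 2-fold, and 88 of 13131 unchanged genes passed the 25% threshold in the hippocampus simulation (13330 genes) and 81 of 10604 in the HT22 one (10802 genes). Recovery of changes smaller than 2-fold is not given, so the draws do not show how often a change near either threshold is called. The draws held counting error only. These rates therefore do not cover PCR duplicates or differences between animals, cultures or library preparations. Alignments used BLAST 2.17.0 (E-value up to 0.001). Promoters and gene structures came from RefSeq and GENCODE M21.

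The members and lists were chosen with earlier results of these data known. Every member is accounted for, and counts are given for the 3 highest and 3 lowest of each compartment in each comparison, for Lars2, Kars and Gars, and for members past a threshold; other genes are given by the values farthest from 0 or because a listed gene overlaps them. Alternatives were other prior counts, filters and scalings (library totals, uniquely mapped reads, DESeq2 1.42.0 size factors), corrections for coding length and GC content, leaving out Lars2, and, for the level of Lars2, the transcript length. Some items are not reported here.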

Additional observations from a re-analysis of the deposited data

How the results depend on the processing

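With 1 library per group, leaving out a library ends a comparison. No paired analysis was possible because each group holds 1 library. In the hippocampus the cytosolic median ran from -0.10 (coding length correction) to -0.06 and the mitochondrial median, near 0, from -0.04 (coding length and GC correction) to 0.01, turning sign with either correction and with uniquely mapped reads. Lars2 was the single call there under each alternative that held it; without Lars2, 0 genes passed the 25% threshold upwards. In HT22 cells, scaling to uniquely mapped reads gave medians of -0.20 in the cytosolic and -0.20 in the mitochondrial set, with 7 genes past the 25% threshold downwards (Iars2, Rars2, Dars, Hars2, Hars, Aars2 and Yars2) and 1 lower by 1.5-fold (Iars2). Correcting for coding length gave medians of 0.06 and 0.11, with 3 higher (Lars2, Wars2 and Ears2) and 2 lower (Iars2 and Iars) at that threshold, and adding GC content gave 2 higher (Lars2 and Wars2) and 2 lower (Iars2 and Iars). Without Lars2, 0 HT22 ratios passed the 25% threshold upwards and 0 passed 1.5-fold. Between cell line and tissue, library totals without TMM gave medians of 1.49 (cytosolic) and 0.50 (mitochondrial), uniquely mapped reads gave 1.27 (cytosolic), and leaving out Lars2 gave 0.26 (mitochondrial). Lars2 ranged from 0.46 to 0.51 in the hippocampus and from 1.01 to 1.23 in HT22 cells, and Iars2 in HT22 cells from -0.71 to -0.47. With the longest transcript's length, an alternative chosen after seeing the data, Lars2 was 11.97 times the median of the other mitochondrial genes in F1m-GCS and 8.45 times in F1m-CON. Depth limits the mitochondrial genes most: the half-width of the interval had a median of 0.16 in the hippocampus and 0.21 in HT22 cells.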

Other observations

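Of the 36 synthetase genes 6 (16.7%) had counting intervals on opposite sides of 0 in the choline comparisons, beside 910 of the 10256 genes measured in both (8.87%), and the set hangs on the processing. Dars was at 0.14 for F1m-GCS over F1m-CON and -0.22 for HT22 SUP over HT22 CON, and Rars2, the mitochondrial arginine enzyme, was at 0.25 in the hippocampus and -0.29 in HT22 cells. Aars, Gars, Kars and Sars were the other way round, between -0.14 and -0.06 in the hippocampus and between 0.10 and 0.12 in HT22 cells. Scaled to uniquely mapped reads, these 4 were between -0.12 and -0.10 in HT22 cells, on the same side as in the hippocampus. Corrected for both GC content and coding length, Dars was at 0.02 and Rars2 at 0.08 in the hippocampus. With the same correction in HT22 cells Dars was at -0.05, Rars2 at -0.16 and Aars at 0.04. Gars, Kars and Sars were then between 0.17 and 0.19. The comparisons differ in source, dose and duration, and the difference between them was not tested.

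Genes of the later steps of translation, not described above, are given next. Eef1a2, the elongation factor of neurons and muscle, had 208 reads in HT22 SUP and 97 in HT22 CON, a log2 ratio of 1.56 (1.23 to 1.95), and its log2 ratio of HT22 cells over hippocampus was -6.20. In the same HT22 libraries the 10 measured pan-neuronal markers had a median ratio of 1.33. The 8 above 0 included Uchl1 at 1.90 and Stmn2 at 1.61. The 2 below 0 were Tubb3 at -0.62 and Eno2 at -0.29. The part of these markers in the Eef1a2 ratio was not tested. Eef1a1, the form most other cells use, had 34389 reads in HT22 SUP and 55741 in HT22 CON, a ratio of -0.21 (-0.23 to -0.19), and was at 1.90 for HT22 cells over hippocampus. Of 10 mitochondrial translation factors 2 passed the 25% threshold downwards in HT22 SUP, beside 12.7% of all genes: Mtrf1, a release factor, with 64 reads in HT22 SUP and 150 in HT22 CON, a ratio of -0.73 (-1.19 to -0.31), and Gfm2, which recycles the mitochondrial ribosome, with 401 reads in HT22 SUP and 736 in HT22 CON, a ratio of -0.39 (-0.57 to -0.21). In the hippocampus Mtrf1 was at 0.32 (0.07 to 0.57) and Gfm2 at 0.03 (-0.08 to 0.14).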
